A study of Homo sapiens with 16 samples.

Results

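The MS4A genes encode small membrane proteins that cross the membrane several times, and most of them lie side by side on human chromosome 11. The 5 described here, MS4A3, MS4A4A, MS4A6A, MS4A7 and MS4A14, were chosen by name from the 60603 genes of the count table, with earlier results of the same libraries known. Their levels and responses to treatment are therefore given as descriptions, with no p-value of their own. RNA was measured in SKNO-1 and U-937, 2 human lines of acute myeloid leukaemia, after 24 hours of treatment with DMSO (the vehicle), ATRA, Corin, or ATRA and Corin together, each compound at 0.1 uM. SKNO-1 carries the RUNX1-RUNX1T1 fusion gene, and U-937 has monocyte-like features. ATRA is all-trans retinoic acid, a ligand of the retinoic acid receptors. Corin inhibits both enzyme activities of the CoREST repressor complex, the lysine demethylase LSD1 and the histone deacetylases. Each of the 8 groups has 2 libraries, 16 in all. SKNO-1 was grown with 10 ng/mL GM-CSF and U-937 without it, so line and medium cannot be told apart.

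Family members are known from distinct stages of the myeloid lineage. MS4A3, also called HTm4, marks granulocyte-monocyte progenitors and binds the cell-cycle phosphatase CDKN3. MS4A4A, MS4A6A and MS4A7 are surface proteins of monocytes, macrophages and microglia; MS4A4A associates with the fungal receptor dectin-1, the product of CLEC7A, and variants near MS4A4A and MS4A6A are linked to the level of soluble TREM2. The best-known relatives are MS4A1, the B cell antigen CD20, and MS4A2, the beta subunit of the high-affinity IgE receptor.

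In U-937 cells the make-up of the family shifted with treatment. MS4A3 was its most abundant transcript under DMSO and MS4A4A under ATRA plus Corin, where MS4A4A stood 172-fold and MS4A6A 18.7-fold above DMSO while MS4A3 stood 2.43-fold below it. In SKNO-1 cells, where all 5 genes were low, Corin alone gave the highest MS4A4A level, 50.4-fold above DMSO. There ATRA alone lowered MS4A3, and also MS4A4A, from 24 reads in the DMSO pair to 5.

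Library totals were 32.8 to 37.8 M assigned reads in SKNO-1 and 28.4 to 37.6 M in U-937. RUNX1T1 was at 92.0 to 148 CPM (counts scaled per M reads of the library) in SKNO-1 libraries and had 2 reads in all U-937 libraries together. The DMSO pair of SKNO-1 stood apart: the standard deviation of the log2 difference between its replicates was 0.361 over 9354 genes, against 0.108 to 0.208 in the other 7 groups. Markers of other lineages summed to 1.41 to 4.45 CPM in SKNO-1 and 76.3 to 143 CPM in U-937, where NKG7 alone gave 70.5 to 139 CPM and was highest with ATRA; MS4A1 and HBB had no read in any library. The part of NKG7 in the results was not tested. The myeloid markers CD33, SPI1, ANPEP and PTPRC summed to 256.5 to 401.7 CPM in SKNO-1 and 392.9 to 776.7 CPM in U-937. In bulk RNA, more cells that express a gene and more RNA per cell cannot be told apart.

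**Figure D1:**
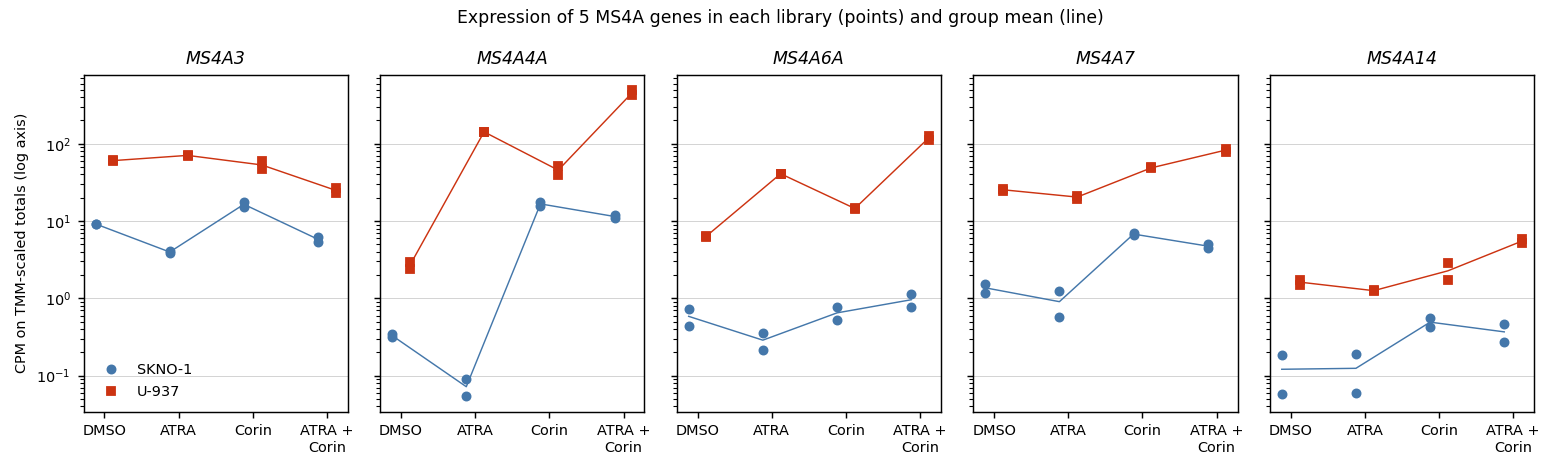
CPM of the 5 MS4A genes on a log axis, by treatment; each point is 1 library (circles SKNO-1, squares U-937) and the line joins group means only to guide the eye. MS4A4A spans from 0.0540 CPM in SKNO-1 with ATRA to 497 CPM in U-937 with ATRA plus Corin, and U-937 points lie above SKNO-1 points in every panel at matched treatment.

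MS4A4A had the widest range of the 5 genes. In U-937 the DMSO replicates held 2.41 and 2.95 CPM, the ATRA replicates 142 and 143 CPM, the Corin replicates 52.2 and 38.9 CPM, and the ATRA plus Corin replicates 423 and 497 CPM. None of these 4 groups overlapped. Relative to DMSO the log2 fold change was 5.73 (SE 0.168) with ATRA, 4.09 (SE 0.166) with Corin and 7.43 (SE 0.175) with both. In SKNO-1 the order differed. Its libraries held 0.318 and 0.342 CPM under DMSO, 0.0900 and 0.0540 CPM with ATRA, 17.5 and 15.9 CPM with Corin, and 12.1 and 10.8 CPM with both. Corin-treated libraries, with or without ATRA, were high and the others near the floor of detection. The DMSO pair rests on 24 reads and the ATRA pair on 5. The log2 fold changes from DMSO were -2.22 (SE 0.393) with ATRA, 5.66 (SE 0.185) with Corin and 5.11 (SE 0.186) with both. Adding ATRA to Corin went with 1.46-fold less MS4A4A in SKNO-1 and with 10.1-fold more in U-937.

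MS4A6A moved with MS4A4A in U-937, in smaller steps. Its U-937 levels were 6.48 and 6.31 CPM under DMSO, 41.0 and 40.9 CPM with ATRA, 14.8 and 14.2 CPM with Corin, and 112 and 127 CPM with both. Groups were again separate, as those of most tested genes were from DMSO, and in the same order as for MS4A4A. The log2 fold changes from DMSO were 2.68 (SE 0.118), 1.19 (SE 0.121) and 4.22 (SE 0.120). In SKNO-1, MS4A6A stayed between 0.216 and 1.14 CPM in all 8 libraries, on 8 to 38 reads each. Its Corin and DMSO groups overlapped there, and no comparison with DMSO passed the threshold in SKNO-1, where the SE of those log2 fold changes was 0.397 to 0.462.

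MS4A7 responded to Corin in both lines but not upward to ATRA alone. U-937 libraries held 24.6 and 26.2 CPM under DMSO, 19.5 and 21.3 CPM with ATRA, 49.7 and 47.9 CPM with Corin, and 78.8 and 86.4 CPM with both. The ATRA group lay just below DMSO and the other groups above it. Log2 fold changes were -0.31 (SE 0.107) with ATRA, 0.94 (SE 0.104) with Corin and 1.70 (SE 0.105) with both. SKNO-1 libraries held 1.19 and 1.55 CPM under DMSO, 0.570 and 1.24 CPM with ATRA, 6.95 and 6.61 CPM with Corin, and 4.99 and 4.501 CPM with both. There Corin gave a log2 fold change of 2.30 (SE 0.287), and the ATRA and DMSO groups overlapped.

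MS4A14, whose GENCODE start lies 45 bases from that of MS4A7 on the same strand, and whose RefSeq start lies 17.9 kb from it, was the least abundant. In U-937 it stood at 1.75 and 1.49 CPM under DMSO, 1.24 and 1.27 CPM with ATRA, 1.70 and 2.84 CPM with Corin, and 5.15 and 5.87 CPM with both. Only the combination passed the threshold against DMSO, with a log2 fold change of 1.76 (SE 0.263). In SKNO-1 it had 2 to 19 reads per library and 0.0578 to 0.558 CPM. Only 3 of the 8 SKNO-1 libraries, none of them DMSO, reached the 10-read level of the low-count filter, so it was tested there only because of the Corin-treated groups. MS4A14 and MS4A7 overlap, and their estimated counts in several U-937 libraries were not whole, which is how reads shared between genes appear; the 2 genes are therefore not independent.

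MS4A3 was lower with the combination in U-937, where the other 4 genes were higher. Its U-937 levels were 61.1 and 60.0 CPM under DMSO, 71.0 and 70.3 CPM with ATRA, 59.0 and 47.4 CPM with Corin, and 23.0 and 26.9 CPM with both. The single agents stayed near DMSO, and the combination was the only low group. The log2 fold changes from DMSO were 0.22 (SE 0.111) with ATRA, -0.18 (SE 0.111) with Corin and -1.28 (SE 0.115) with both. SKNO-1 libraries held 9.11 and 9.24 CPM under DMSO, 3.90 and 4.05 CPM with ATRA, 17.5 and 15.4 CPM with Corin, and 5.36 and 6.24 CPM with both. Here each single agent separated from DMSO, in opposite directions. Groups also separated from DMSO for 40.7% of all tested SKNO-1 genes with ATRA and 65% with Corin. The MS4A3 log2 fold change was -1.21 (SE 0.134) with ATRA and 0.84 (SE 0.126) with Corin. The combination lay between them at -0.66 (SE 0.131).

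**Figure D2:**
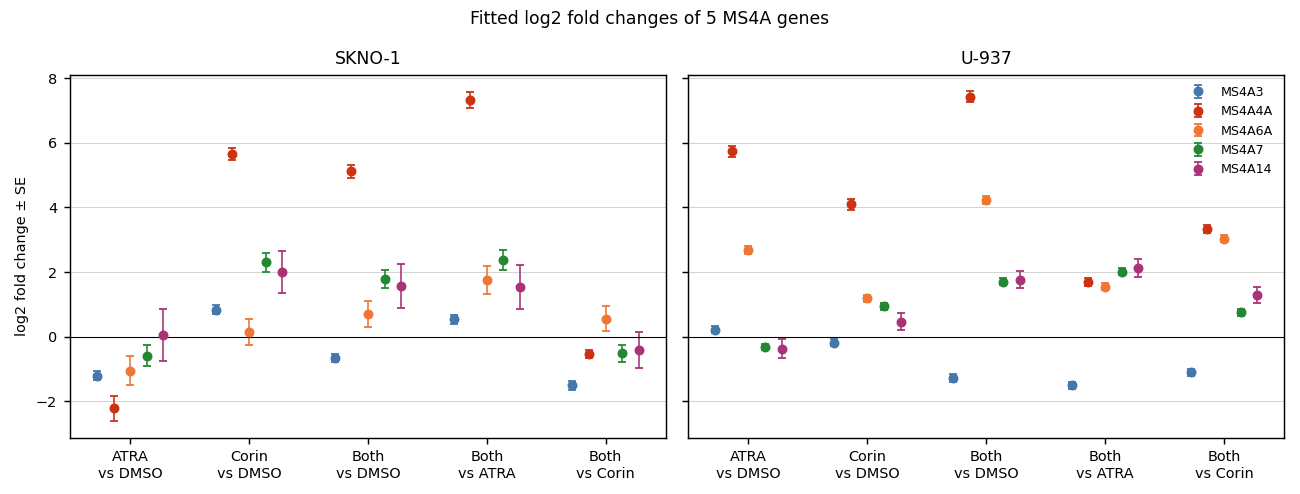
Fitted log2 fold changes (points) with 1 SE (bars) of the 5 genes in 5 comparisons, SKNO-1 on the left and U-937 on the right; 0 means no difference. In U-937 MS4A3 lies below 0 and the other 4 genes above 0 in the 3 comparisons that involve the combination.

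Set against all tested genes, a gene was counted as called when its edgeR quasi-likelihood adjusted p was under 0.05, in either direction. Each background is the share called in either direction, unless stated otherwise. With ATRA, 2 of the 5 MS4A genes were called in SKNO-1, where 6.76% of 17479 tested genes were called, and 3 in U-937, where 41.8% of 17717 were. With Corin the counts were 4 in SKNO-1 (background 37.9%) and 3 in U-937 (background 12.9%). The 4 in SKNO-1 include MS4A14, which was tested there only because of the Corin-treated groups. With both agents the counts were 3 in SKNO-1 (background 46.7%) and 5 in U-937 (background 65.3%). Adding Corin to ATRA called 4 in SKNO-1 (background 44.8%) and 5 in U-937 (background 47.4%), while adding ATRA to Corin called 2 in SKNO-1 (background 10.4%) and 5 in U-937 (background 60.5%). The genes were picked with these contrasts known, so nothing is read from these counts. The median log2 fold change of all tested genes was between 0 and 0.05 in these 10 comparisons within a line.

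Some calls depended on the choice of fit. MS4A4A with ATRA in SKNO-1 was called in 7 of 9 alternative fits, and MS4A14 with Corin in SKNO-1 in only 3 of 9. For both agents against ATRA in SKNO-1, MS4A3 and MS4A6A were each called in 7 of 9. MS4A4A in SKNO-1 between the combination and Corin was called in 4 of 9, with a log2 difference of -0.62 to -0.47, and MS4A7 with ATRA in U-937 in 7 of 9, at -0.39 to -0.25. Without the first SKNO-1 DMSO replicate, MS4A6A was added to the genes called with ATRA, making 3, and without the second, MS4A14 was added to those called with the combination, making 4.

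The authors' deposited table gave the same directions for the combination, with log2 fold changes in U-937 of 7.40 for MS4A4A, 4.20 for MS4A6A, 1.68 for MS4A7, 1.74 for MS4A14 and -1.31 for MS4A3. In the authors' deposited table for ATRA in SKNO-1, MS4A4A had a log2 fold change of -2.22 with a standard error of 1.33 and was not past an adjusted p of 0.05, unlike in the fit used here. The authors' deposited table also left MS4A14 with Corin in SKNO-1 at 1.98 with a standard error of 1.12, and MS4A7 with ATRA in U-937 at -0.32, both again short of that threshold.

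The transcript length that RSEM assigns to a gene, a mean over its isoforms, bears on such levels. In libraries with at least 100 reads of the gene, the longest value was 1.07 to 1.20 times the shortest for each of the 5 genes in each line where it could be compared. This left no DMSO library for MS4A4A in either line, for MS4A7 in SKNO-1 or for MS4A14 in U-937. For these, the range does not compare DMSO with treatment. MS4A4A in SKNO-1 had a mean length of 784 bases under DMSO, on 24 reads, and 1310 bases with Corin. MS4A14 in U-937, on 44 to 56 reads under DMSO, had a mean length of 1612 bases there and 2451 bases with both agents. Its TPM was 1.08 under DMSO and 1.65 with both, a smaller step than the 3.39-fold change in its scaled reads. TPM was also not rescaled between libraries, so length is not the only difference between these measures. MS4A7 in U-937, with mean lengths of 1757 and 1773 bases in these groups, went from 15.1 to 34.6 by TPM and from 25.4 to 82.6 by CPM. The part of length in the MS4A14 step was not tested.

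Transcript levels per length (TPM, which can be compared between genes of 1 library) show how the family's make-up shifted. Under DMSO, MS4A3 made up 63.8% ± 0.827 (SD, n = 2) of the summed TPM of the 5 genes in U-937 and 75.0% ± 3.88 (SD, n = 2) in SKNO-1. With both agents its share was 2.95% ± 0.121 (SD, n = 2) in U-937 and 21.2% ± 1.76 (SD, n = 2) in SKNO-1. MS4A4A went the other way in U-937, from 3.26% ± 0.787 (SD, n = 2) under DMSO to 52.7% with ATRA, 30.9% with Corin and 66.3% with both. In SKNO-1 its share was 5.45% under DMSO and 2.60% with ATRA, and it reached 44.3% with Corin and 54.2% with the combination. The summed TPM was 71.4 under DMSO and 435.7 with both agents in U-937, and 7.78 and 13.3 in SKNO-1; TPM was not rescaled between libraries.

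**Figure D3:**
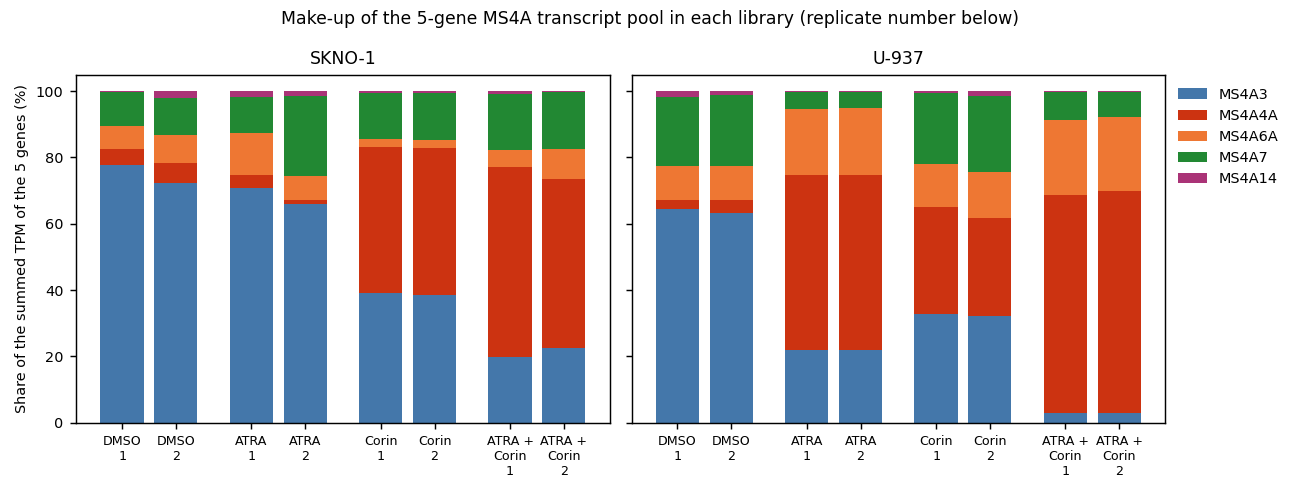
Share of the summed TPM of the 5 genes taken by each gene, in percent, 1 bar per library with its replicate number below. MS4A3 fills on average 63.8% of the U-937 DMSO bars and 2.95% of the U-937 ATRA plus Corin bars.

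By TPM the order in U-937 under DMSO was MS4A3 (45.6), MS4A7 (15.1), MS4A6A (7.39), MS4A4A (2.34) and MS4A14 (1.08), with no overlap between neighbours. With both agents it was MS4A4A (289), MS4A6A (97.5), MS4A7 (34.6), MS4A3 (12.9) and MS4A14 (1.65), again without overlap. MS4A4A thus moved from the fourth place to the first, and MS4A3 from the first to the fourth. With Corin alone MS4A3 (39.1) and MS4A4A (37.2) overlapped, as did MS4A3 (43.9) and MS4A6A (40.0) with ATRA alone. In SKNO-1 under DMSO MS4A3 (5.78) stood clear at the top and MS4A14 (0.110) at the bottom, and MS4A7 (0.845), MS4A6A (0.605) and MS4A4A (0.435) overlapped in turn. With Corin in SKNO-1 MS4A4A (12.2) and MS4A3 (10.6) led without overlap, ahead of MS4A7 (3.85).

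The combination was also compared with the product of the single-agent folds. In U-937 that product would put MS4A4A at 2418 CPM, and the observed mean was 460 CPM, 0.190 of it. MS4A3 would be at 62.1 CPM and was at 24.9 CPM, a ratio of 0.401. MS4A7 (39.2 CPM from the product, 82.6 CPM observed) and MS4A14 (1.76 and 5.51 CPM) lay above it, with ratios of 2.11 and 3.13. MS4A6A, with 93.0 CPM from the product and 120 CPM observed, was the closest. The departure was called for 4 of the 5 genes in U-937 (background 23.4%) and for none in SKNO-1 (background 0.463%), where edgeR, DESeq2 and each leave-one-out fit all gave 0 and edgeR's unadjusted p was under 0.05 for 2. SKNO-1 log2 departures were 1.67 (SE 0.425) for MS4A4A and 1.61 (SE 0.608) for MS4A6A, the first resting on the 5 reads of the ATRA pair.

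**Figure D4:**
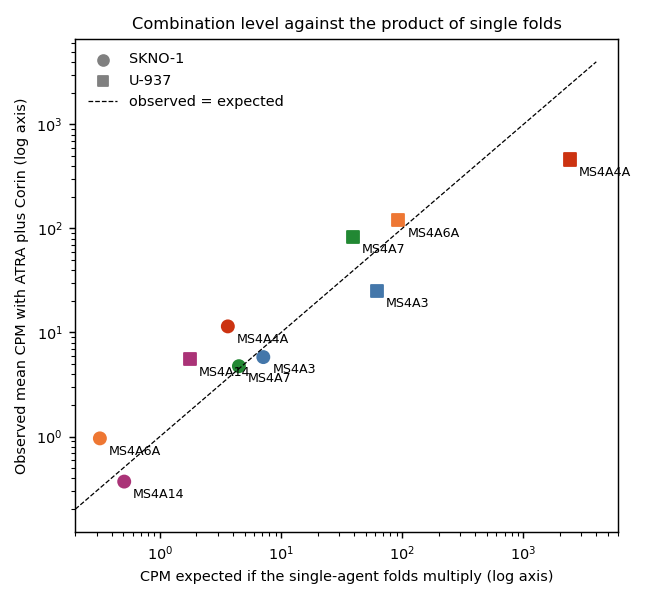
Observed mean CPM with ATRA plus Corin against the CPM expected if the single-agent folds multiply, both on log axes, for each gene in SKNO-1 (circles) and U-937 (squares); the dashed line marks equality. MS4A4A in U-937 lies below the line at 460 observed against 2418 expected, and MS4A7 and MS4A14 in U-937 lie above it.

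Between the lines, all 5 genes were higher in U-937 than in SKNO-1 under DMSO, where 64.8% of 19872 genes tested over both lines were called and 31.7% were called higher in U-937. The differences were 6.04-fold for MS4A3, 7.40-fold for MS4A4A, 9.90-fold for MS4A6A, 16.9-fold for MS4A7 and 12.02-fold for MS4A14. The response to ATRA differed between lines for 3 genes (background 19.4%). MS4A4A was apart by 7.99 (SE 0.641) on the log2 scale, up in U-937 and down in SKNO-1. Its SKNO-1 side rests on 5 reads with ATRA and 24 with DMSO. The response to Corin differed for 3 (background 12.8%), each lower in U-937: MS4A4A by -1.56 (SE 0.332), MS4A7 by -1.36 (SE 0.243) and MS4A3 by -1.03 (SE 0.171). The response to both differed for 3 (background 40.6%), with MS4A6A apart by 3.57 (SE 0.344) and MS4A4A by 2.36 (SE 0.409).

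On GRCh38 the 5 genes span 361.2 kb of chromosome 11, from MS4A3 (plus strand, 60056587 to 60071115) through MS4A6A (minus strand, 60172015 to 60184666), MS4A4A (plus strand, 60185657 to 60318080) and MS4A7 (plus strand, 60378485 to 60395951) to MS4A14 (plus strand, 60378530 to 60417756), in the GENCODE annotation. The RefSeq start of MS4A4A lies further in, at 60280666. With the combination in U-937, MS4A4A and MS4A6A changed most of the 5 genes, and MS4A3 changed in the opposite direction. The 250 bases before the RefSeq starts of MS4A4A, MS4A6A and MS4A3 are therefore shown with those of MS4A7, 5′ to 3′ along each gene (RefSeq, build GRCh38.p14). Capitals mark GAGGAA, the core bound by PU.1 and other ETS factors, and TTGCNNAA, a C/EBP-like pair of half-sites, on either strand.
MS4A4A, chr11:60280416-60280665, plus strand: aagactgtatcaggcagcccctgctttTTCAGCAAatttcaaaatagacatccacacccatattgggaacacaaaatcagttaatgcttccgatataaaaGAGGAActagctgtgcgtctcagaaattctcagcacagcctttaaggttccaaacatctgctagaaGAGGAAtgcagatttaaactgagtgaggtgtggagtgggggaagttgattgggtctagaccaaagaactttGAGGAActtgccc
MS4A6A, chr11:60184667-60184916, minus strand: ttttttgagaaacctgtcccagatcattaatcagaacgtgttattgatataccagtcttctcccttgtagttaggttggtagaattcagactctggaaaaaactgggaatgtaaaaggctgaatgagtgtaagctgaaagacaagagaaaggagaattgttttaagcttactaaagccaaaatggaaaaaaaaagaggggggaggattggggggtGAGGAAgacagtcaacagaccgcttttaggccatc
MS4A7, chr11:60378282-60378531, plus strand: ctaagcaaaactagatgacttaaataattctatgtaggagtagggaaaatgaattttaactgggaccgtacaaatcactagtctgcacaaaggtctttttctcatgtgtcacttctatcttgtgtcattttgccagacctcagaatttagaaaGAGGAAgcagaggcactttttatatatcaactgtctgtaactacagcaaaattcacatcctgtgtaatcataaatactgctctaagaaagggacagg
MS4A3, chr11:60056415-60056664, plus strand: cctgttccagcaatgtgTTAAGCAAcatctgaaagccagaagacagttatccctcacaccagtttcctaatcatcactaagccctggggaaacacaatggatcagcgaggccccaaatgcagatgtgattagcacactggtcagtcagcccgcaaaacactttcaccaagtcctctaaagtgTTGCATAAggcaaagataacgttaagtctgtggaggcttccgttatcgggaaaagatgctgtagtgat

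MS4A4A holds 3 GAGGAA matches, whose first bases are at -150, -84 and -13 from the start, and MS4A6A and MS4A7 hold 1 each, at -35 and -97. GAGGAA occurs in 23.4% of 27305 RefSeq promoter windows of this length. MS4A3 holds no GAGGAA and 2 TTGCNNAA matches, and MS4A4A holds 1 TTGCNNAA. The latter motif occurs in 9.13% of windows. The window of MS4A14, which also rose with the combination in U-937, is not shown and holds neither motif. The half-sites of retinoic acid receptors, AGGTCA (12.1% of windows) and GGTTCA (7.17%), the RUNX core TGTGGT (10.9%) and the pair of interferon regulatory factor half-sites (3.07%) have no match in the windows of the 5 genes. TATAAA (11.1% of windows) matches in the MS4A4A and MS4A7 windows shown and in that of MS4A14. RefSeq lists 4 starts for MS4A6A, and the window shown is that of the start at 60184666; the windows of the others hold 2 TATAAA matches, 1 GAGGAA and 1 TTGCNNAA between them. In the windows shown, none of the motifs searched overlap each other. A match is a run of letters and not evidence of binding.

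Of 13 further family genes listed, 12 were in the table, and MS4A15 was not analysed here. MS4A4E, a close copy of MS4A4A that lies within it on the other strand, and MS4A2 were the 2 tested in U-937. With both agents there, MS4A4E had a log2 fold change of 2.96 (SE 0.542; edgeR adjusted p = 4.41e-05), from 8 reads in the DMSO pair to 64. Its U-937 libraries with DMSO or ATRA were below the low-count filter's level. MS4A4E was thus tested there only because of the Corin-treated groups where it was high. Because the strand setting of the counting is not given in the sources used here, any MS4A4A reads assigned to MS4A4E cannot be identified. MS4A2 fell by 3.22 on the log2 scale (SE 0.625; edgeR adjusted p = 8.76e-05), from 54 reads to 6. TMEM176A and TMEM176B, the related pair on chromosome 7, and MS4A4E were tested in SKNO-1, where none passed against DMSO (lowest edgeR adjusted p = 0.0533, TMEM176A with both agents); TMEM176B stood at 15.9 CPM ± 1.75 (SD, n = 2) under DMSO. TMEM176B was lower in U-937 than in SKNO-1 under DMSO, by a log2 difference of -7.25 (SE 0.316; edgeR adjusted p = 1.76e-13). MS4A4E was also lower in U-937, at -3.76 (SE 0.465; edgeR adjusted p = 8.37e-07), and MS4A2 was higher, at 3.08 (SE 0.755; edgeR adjusted p = 0.00163). MS4A1, MS4A12, MS4A13 and MS4A18 had no read in any library.

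**Figure D5:**
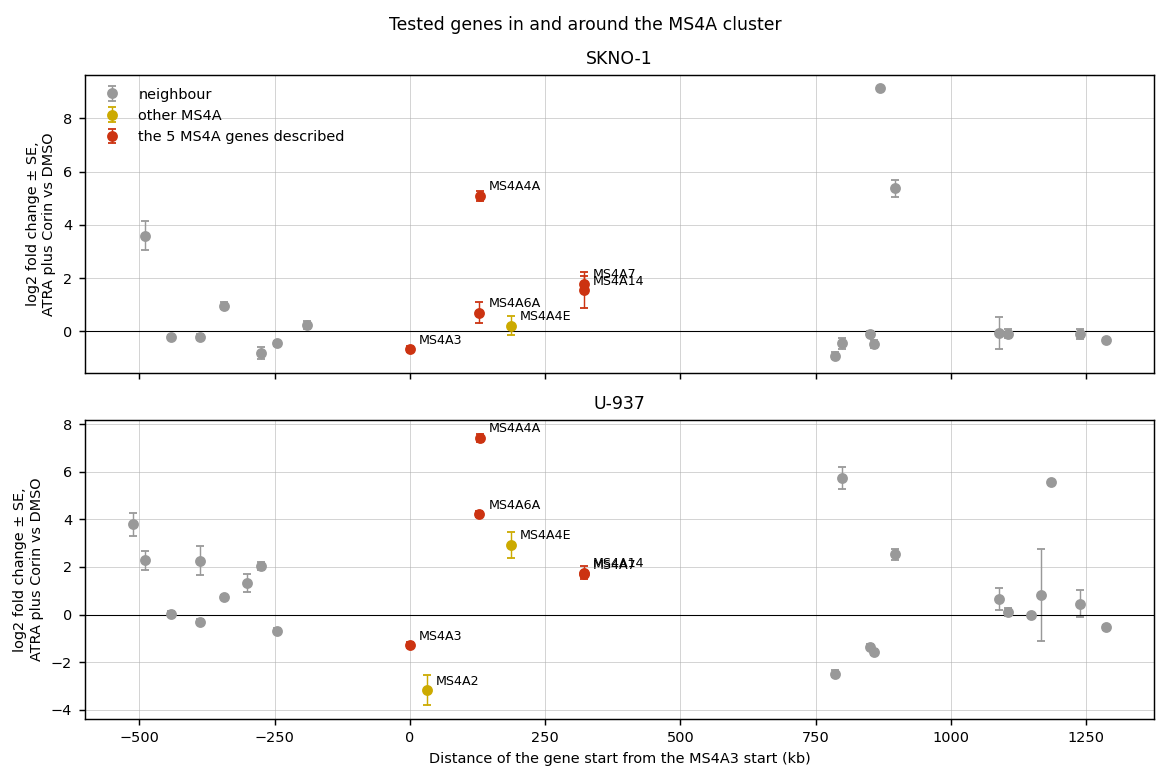
Log2 fold change between ATRA plus Corin and DMSO (points) with 1 SE (bars) against the distance of the GENCODE gene start from the start of MS4A3, in kb, for tested genes within 500 kb of the cluster; SKNO-1 above and U-937 below. Red marks the 5 genes, yellow other MS4A genes and grey neighbours; a point without a bar has no SE, since a group had no reads, or a bar shorter than the point. The response is not uniform along the region: MS4A3 and MS4A2 lie below 0 and MS4A4A and MS4A6A above 0 in U-937.

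Of genes outside the family within 500 kb of the cluster, 21 were tested in U-937 and 17 in SKNO-1. With both agents 9 rose and 6 fell in U-937 (65.3% of all tested genes were called), with a median log2 fold change of 0.64 against 0.03 for all genes. In SKNO-1 4 rose and 6 fell (46.7% of all tested genes were called), with a median of -0.10 against 0.05. The largest changes were those of SLC15A3 and TMEM132A in SKNO-1 and of PTGDR2 and PGA5 in U-937. TMEM132A had no read in the SKNO-1 DMSO pair and 69 and 63 reads with both agents, and PGA5, a pepsinogen gene with near-identical copies, had none in the U-937 DMSO pair and 4 and 6.64 with both. These genes were tested only because of treated groups where they were high, and the counts and medians above include them. How many other neighbours entered in this way was not counted. SLC15A3, a lysosomal histidine and peptide transporter, rose by 2.52 (SE 0.226; edgeR adjusted p = 7.66e-10) in U-937 and by 5.37 (SE 0.314; edgeR adjusted p = 1.23e-05) in SKNO-1. PTGDR2, a prostaglandin D2 receptor, rose by 5.74 (SE 0.466; edgeR adjusted p = 1.07e-10) in U-937. CCDC86, a nucleolar protein gene, fell by 2.49 there (SE 0.156; edgeR adjusted p = 1.24e-12). TCN1, which encodes the vitamin B12 carrier of neutrophil granules, lies on the MS4A3 side of the cluster. In SKNO-1 it had a log2 fold change of -3.09 with ATRA (edgeR adjusted p = 0.000106) and of 3.49 with Corin (edgeR adjusted p = 4.7e-06). CCDC86 and TCN1 were picked after their values were seen.

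Partners reported for MS4A proteins were followed as a list of 14, of which 13 were tested in each line. With both agents in U-937, 8 rose and 3 fell, where 65.3% of all tested genes were called. Of the 13, CLEC7A, IL3RA and TREM2 were below the low-count filter's level in at least 1 U-937 DMSO library, so they were tested because of the groups where they were high; among the other 10, 6 rose and 3 fell. CLEC7A, the dectin-1 partner of MS4A4A, rose by 7.10, from 5 reads in the DMSO pair (SE 0.384; edgeR adjusted p = 7.96e-14). TYROBP, the signalling adaptor of TREM2, rose by 4.22 (SE 0.137; edgeR adjusted p = 8.27e-18), and CDK2, a kinase acted on by the MS4A3 partner CDKN3, fell by 1.74 (SE 0.109; edgeR adjusted p = 1.25e-12). CDKN3 itself fell by 1.01 (SE 0.120; edgeR adjusted p = 9.73e-08). TREM2 rose with ATRA in U-937, by 3.94 (SE 0.472; edgeR adjusted p = 4.81e-07); its log2 fold change with both agents was -1.36 (SE 0.801; edgeR adjusted p = 0.141), on 5 reads in each DMSO library and 3 and 1 with both. TYROBP, CDKN3 and TREM2 are shown for their role and were picked after their values were seen. In SKNO-1, 6 of the 13 rose and 3 fell with Corin (background 37.9%), and 1 rose and 3 fell with ATRA (background 6.76%). There CD9 and CLEC7A were below the filter's level in at least 1 DMSO library. Among the other 11, 5 rose and 3 fell with Corin, and 1 rose and 3 fell with ATRA.

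Monocyte and macrophage genes were counted beside the family. Of 17 listed, 11 were tested in each line. Some of these were tested only through the treated groups where they were high: CD14, CD163 and FCGR3A in SKNO-1 and C1QA, CD163, SIGLEC1 and VSIG4 in U-937 were below the low-count filter's level in at least 1 DMSO library. The counts that follow leave them out. Of the other 8 in SKNO-1, 8 rose with Corin (background 37.9%), and 4 rose and 2 fell with ATRA (background 6.76%). Of the other 7 in U-937, 5 rose and 1 fell with ATRA (background 41.8%), 7 rose with Corin (background 12.9%) and 7 rose with both (background 65.3%). These backgrounds count both directions. With Corin in SKNO-1, 3590 of 17479 tested genes were called higher. In U-937, 1514 of 17717 were called higher with Corin and 5860 with both. CD163, the haemoglobin scavenger receptor of macrophages, had no read in the U-937 DMSO pair and 84 and 86 reads with both agents. Picked after their values were seen, ITGAM, the integrin CD11b, rose with both agents by 6.32 (SE 0.128; edgeR adjusted p = 2.61e-21) and CSF1R, the macrophage colony-stimulating factor receptor, by 5.29 (SE 0.186; edgeR adjusted p = 3.19e-17) in U-937.

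Granulocyte-monocyte progenitor genes, the set in which MS4A3 is usually placed, were mixed. Of 9 listed, 8 were tested in U-937 and 9 in SKNO-1. With both agents in U-937, 2 rose and 4 fell, where 65.3% of all tested genes were called; PRSS57, 1 of those that rose, was below the low-count filter's level in DMSO. Those that fell were CST7 (-2.53), ELANE (-1.54), CTSG (-1.38) and PRTN3 (-1.17), a protease inhibitor gene and 3 granule protease genes (all but CST7 named after their values were seen), and CEBPE, a granulocyte transcription factor, rose by 3.23 (SE 0.162; edgeR adjusted p = 2.06e-14). In SKNO-1, 5 fell and none rose with Corin (background 37.9%), under which MS4A3 was 1.79-fold higher than under DMSO.

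Genes with the most similar profile were named for each MS4A gene by Pearson's r of log2 CPM over the 8 libraries of a line. In U-937 the closest to MS4A4A were AOC1 (r = 0.997), CD300C (r = 0.996) and CD82 (r = 0.996). Those closest to MS4A6A were STX11, DRAM1 and TNFSF4, to MS4A7 FCGR2B and DUSP10, to MS4A14 ARHGAP26, USP49 and OLMALINC, and to MS4A3 B3GLCT, NDC80 and CTSG. CTSG is the neutrophil protease cathepsin G (r = 0.994 with MS4A3). In SKNO-1 the closest to MS4A4A were FCGR2C, CSTA and FRAS1, to MS4A7 PER3, S1PR1 and RTN1, and to MS4A3 ADAMTS1, CPA3 and TXNIP. FCGR2B and FCGR2C are near-identical Fc receptor genes whose reads can be split between them. These are the highest of 10144 to 10265 candidate genes, over libraries that share their treatments, and are descriptions.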

How the data were processed

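RNA was measured in 16 libraries of SKNO-1 and U-937. Reads were processed with Trimmomatic, STAR, RSEM and DESeq2 on hg38, per the submitters' processing notes; versions and the strand setting are not given in the sources used here. The authors deposited RSEM expected counts and TPM per gene, and DESeq2 tables of log2 fold changes with p-values. ERCC spike-ins were added, per the labels' protocols, but are not used here, so absolute RNA was not measured.

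Expected counts were rounded to whole numbers (20.4% of positive values were not whole) and fitted with edgeR 4.0.16 (R 4.3.3): low-count filter at 10 reads, TMM scaling, robust quasi-likelihood test, Benjamini-Hochberg over all genes tested. Each line was fitted on its 8 libraries, and contrasts between lines on all 16. CPM uses TMM-scaled totals within a line. Log2 fold changes of MS4A and listed genes carry no added prior count; those of neighbouring genes carry edgeR's default one. SE is the log2 fold change divided by the square root of F. The procedure was tested on simulated data. Alternatives were DESeq2 1.42.0, library totals, no filter, a replicate block, only the 4 libraries compared, and leaving out each library.

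The MS4A genes, the 4 lists and the tests were chosen with earlier results of these data known. The labels do not say that replicates are separate cultures, so p-values measure the spread between these samples, which may be technical. Partners, neighbours and list genes are named for their role or the size of their change; similar genes are the 3 with the highest r among those with mean CPM of at least 5. One such gene is not reported here.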

Additional observations from a re-analysis of the deposited data

Results flagged for a closer look

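Responses that differed between U-937 and SKNO-1 by the test of the difference itself are given as U-937 minus SKNO-1 on the log2 scale. For ATRA the differences were 1.47 for MS4A3, 7.99 for MS4A4A and 3.77 for MS4A6A. The SKNO-1 side of the MS4A4A value rests on 5 reads with ATRA and 24 with DMSO. For Corin the differences were -1.03 for MS4A3, -1.56 for MS4A4A and -1.36 for MS4A7. For ATRA plus Corin they were -0.58 for MS4A3, 2.36 for MS4A4A, 3.57 for MS4A6A and 2.80 for MS4A4E (edgeR adjusted p = 0.000919). The MS4A3 difference for the combination was called in 10 of 12 alternative fits. All these genes were chosen with earlier results of these data known. With 2 libraries a group, no search for outlying samples was made.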

How the results depend on the processing

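No MS4A result changed direction among the calls, and 150 of 158 recomputed counts of called MS4A genes stayed within 1.5 times. With only the 4 libraries compared, ATRA in SKNO-1 called 1 MS4A gene and 239 genes in all (1181 in the full fit), Corin in SKNO-1 called 3776 (6619), and the combination against Corin in SKNO-1 called 7440 (1822). Without the low-count filter ATRA in SKNO-1 called 1963, the combination against Corin 4238, and the departure from additivity in SKNO-1 1445 (81). DESeq2 gave 277 for that departure. The replicate numbers did not pair samples (correlations of deviations -0.488 to 0.236 in SKNO-1 and -0.447 to 0.418 in U-937); with a replicate block the combination against Corin in SKNO-1 called 1066 genes and 1 MS4A gene, and the departure in SKNO-1 20. The cause was not tested.

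Leaving out 1 library at a time gave, in SKNO-1, 562 to 5335 genes with ATRA (5335 and 4522 without the first and second DMSO replicate), 3626 to 9520 with Corin, 5469 to 11100 with both, 4962 to 5231 for both against ATRA, 397 to 466 for both against Corin and 7 to 5648 for the departure. Called MS4A genes were 1 to 3 with ATRA (1 without the second ATRA replicate), 2 to 4 for both against ATRA (2 without the second combination replicate) and 1 for both against Corin. In U-937 Corin called 1332 to 1887 genes. The difference of the Corin response between lines called 1524 to 4471. Scaling by library totals moved the all-gene median from 0.02 to -0.11 for the combination against Corin in U-937, from 0.03 to -0.09 against DMSO, from -0.01 to 0.15 between lines, and from -0.11 to -0.26 for the difference of the combined response.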
